A study of Mus musculus with 2 samples.

Results

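The genes described here are the chemokines that act on the receptors CCR2 and CCR3, with both receptors: 6 ligand genes (Ccl2, Ccl7, Ccl8, Ccl11, Ccl12 and Ccl24) and 2 receptor genes (Ccr2 and Ccr3). They were picked by name, with earlier results of these data known, and are 8 of the 27998 genes in the count files. All 8 had at least 1 UMI in each library. Droplet single cell RNA-seq counted unique molecular identifiers (UMIs, 1 for each captured transcript) in ear skin of 7~8 weeks old ICR mice, an outbred strain. In the ACD library, allergic contact dermatitis had been set up by painting the hapten 1.0% DNFB on dorsal skin for sensitization and 0.2% DNFB on the ears 6 days later, with skin taken 60 hr after that. The other library came from ear skin of healthy control mice, for which the labels give no solvent treatment, and the methods name male mice for the ACD model. Both were digested with collagenase D and DNase1 and depleted of dead cells, steps that set which cells are recovered, and no source used here says whether a library holds 1 animal or several.

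Each condition was thus 1 library, so no difference between ACD and control could be tested, and the effects of the animal, the digestion and the run cannot be told apart from that of ACD. After filtering, 12213 control cells with 92188895 UMIs and 11665 ACD cells with 99649023 UMIs were kept, with medians of 6850 and 7447 UMIs per cell. Of the barcodes, 50 occurred in both libraries. Cells were put into classes by marker genes, and 20.3% of control cells and 18.7% of ACD cells passed no gate and are called ungated. Levels are UMIs of a gene per 1000000 UMIs of a class. Numbers in parentheses after a value are its exact 95% interval, from the Poisson law for levels, the Clopper-Pearson method for shares and a conditional binomial for ratios, and these cover counting error only. A gene is said to be past the fold when a class held at least 50 of its UMIs over both libraries and its level differed at least 2-fold. Capture differs from gene to gene, so levels are compared only within a gene.

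The makeup of the libraries differed. Dermal fibroblast (dFB)-gated cells numbered 4706 in control and 2412 in ACD, T/NK/ILC-gated lymphocytes 692 and 3119, chondrocyte-gated cells 2286 and 1721, pericyte-gated cells 247 and 114, mast cell-gated cells 87 and 149, and mononuclear phagocyte-gated cells 47 and 243. Basophil-gated cells numbered 3 and 186. No cell passed the gate for eosinophils, the granulocytes for which CCR3 is best known. The 5 eosinophil markers (Epx, Prg2, Prg3, Siglecf and Il5ra) together had 4 UMIs in all control cells and 25 in all ACD cells, with 3 of the 5 at 0 in control and 1 in ACD.

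CCR2 and CCR3 are receptors of the cell surface that couple to G proteins and steer leukocytes up a gradient of chemokine. CCR2 is known above all from inflammatory monocytes, which need it to leave the bone marrow, and it also marks memory and innate-like T cells. CCR3 is known from eosinophils and basophils. The monocyte chemoattractants (CCL2, CCL7, CCL8 and CCL12) and the eotaxins (CCL11 and CCL24) are CC chemokines, small secreted proteins named for a pair of adjacent cysteines near the mature N terminus, and several of them bind more than 1 receptor. In mouse, CCL8 is also a ligand of CCR8.

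Of the 6 ligand genes, 5 lie in 1 cluster on chromosome 11 of GRCm38, in the order Ccl2, Ccl7, Ccl11, Ccl12 and Ccl8, all on the forward strand, and Ccl24 lies apart on chromosome 5. The stretch of exon 2 that encodes the cysteine pair is printed here because it is the feature that puts all 6 in the CC family. Capitals mark the 2 adjacent cysteine codons, and lower case gives up to 23 bases before and the 27 after, 5′ to 3′ on the coding strand of GRCm38. All 6 pairs lay within exon 2 of the GENCODE M21 transcript with the coding region used here.
Ccl2, chr11:82036483-82036538, forward strand: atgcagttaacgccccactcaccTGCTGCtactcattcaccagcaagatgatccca
Ccl7, chr11:82046518-82046570, forward strand: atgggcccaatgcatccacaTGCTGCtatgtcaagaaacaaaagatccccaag
Ccl11, chr11:82061679-82061728, forward strand: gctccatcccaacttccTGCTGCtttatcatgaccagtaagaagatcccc
Ccl12, chr11:82102611-82102666, forward strand: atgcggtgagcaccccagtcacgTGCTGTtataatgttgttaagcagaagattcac
Ccl8, chr11:82116039-82116088, forward strand: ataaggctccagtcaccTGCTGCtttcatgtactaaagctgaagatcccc
Ccl24, chr5:135572638-135572693, reverse strand: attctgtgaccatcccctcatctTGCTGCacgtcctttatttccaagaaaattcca
Pairs of the coding sequences of Ccl7, Ccl8, Ccl11 and Ccl12 had the same base in 64.6% to 67.7% of alignment columns, gaps included. For any pair with Ccl2 or Ccl24 this was 49.4% to 54.2%. The coding sequences of Ccl2 and Ccl24 are longer than those of the other ligand genes, which adds gap columns. These percents therefore do not rank the pairs by shared bases where both sequences align, and percents without gaps were not computed. Ccr2 and Ccr3 had the same base in 62.8% of columns. None of these genes is a near-identical copy of another by this measure.

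Most ligand RNA in both libraries was in fibroblasts. The 6 ligand genes together had 96023 UMIs in control and 75685 in ACD. The dFB-gated cells, 38.5% of control cells and 20.7% of ACD cells, held 90.5% (90.3 to 90.7) of the ligand UMIs in control and 89.8% (89.6 to 90.0) in ACD. Within them, the cells gated as reticular/papillary fibroblasts of the dermis held 45.7% of all ligand UMIs in control and 43.2% in ACD. Mast cell-gated cells held 1.13% (1.07 to 1.20) and 2.56% (2.45 to 2.68), and pericyte-gated cells 2.28% (2.18 to 2.37) and 1.24% (1.16 to 1.32). Mononuclear phagocytes, which in other inflamed tissues are a familiar source of these chemokines, held 0.424% and 0.534%, from 0.385% and 2.08% of cells. Such shares depend on how many cells of a class were recovered as well as on its level. The summed level of the 6 ligand genes was 2347 in control and 2712 in ACD in dFB, and 8372 and 5883 in mast cells. Pericytes had 1898 and 867, and mononuclear phagocytes 1113 and 210. The macrophage-gated cells among those phagocytes had 3131 and 2442.

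**Figure D1:**
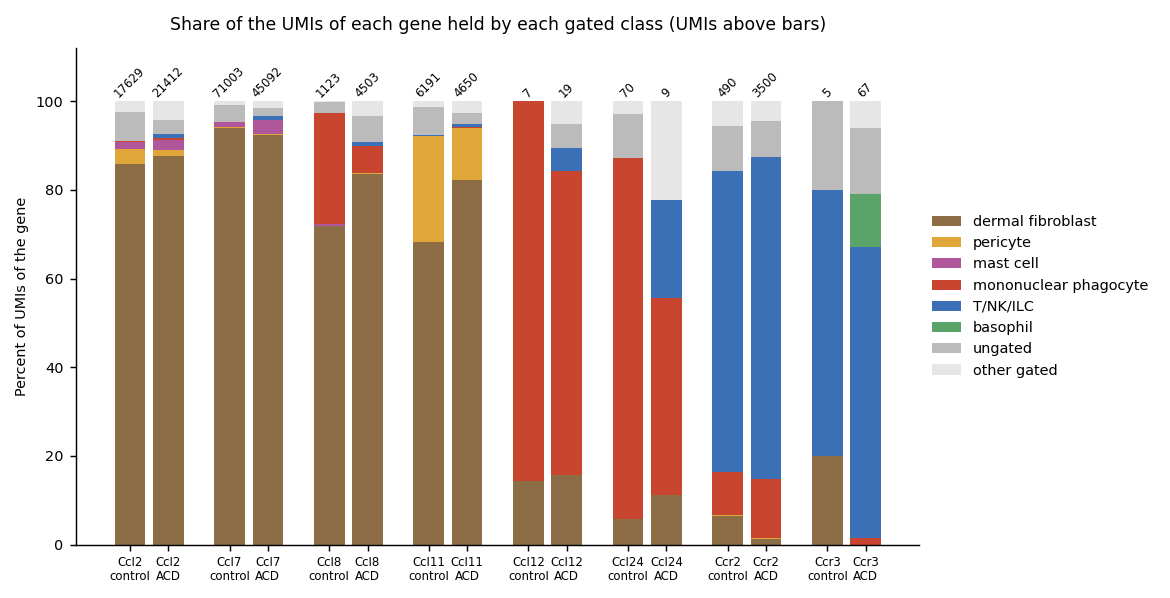
Stacked bars give the percent of each gene's UMIs that lay in each gated class, for control and ACD side by side, with the total UMIs of the gene in that library above the bar. Ccl2 and Ccl7 were mostly in dFB-gated cells in both libraries (85.8% and 87.5% of Ccl2, 93.9% and 92.3% of Ccl7), Ccl11 was divided between dFB and pericytes, and Ccr2 was mostly in T/NK/ILC-gated cells.

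Over 16 classes with at least 20 cells in each library, 37 pairs of a member and a class had at least 50 UMIs, of which 9 were at least 2-fold higher in ACD, 6 at least 2-fold lower and the others in between. Over all 92590 pairs of a gene and a class with that many UMIs, 3.47% were past the fold upward and 2.47% downward. The count of 9 was 5 without cells that the doublet caller Scrublet marked, and 5 with 10 UMIs per 1000000 added on both sides. It was 15, out of a larger set of pairs, when 20 UMIs sufficed. The share of all pairs past the fold was not computed for these settings, so these counts cannot be set against 3.47%. The directions depended on the class. All 4 ligands with at least 50 UMIs in mononuclear phagocytes were lower in ACD, as were Ccl11 in pericytes and Ccl7 in myelinating Schwann cells. The ligands past the fold in dFB, keratinocytes, vascular smooth muscle cells (VSMC), lymphatic endothelial cells and perichondrial cells were higher.

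**Figure D2:**
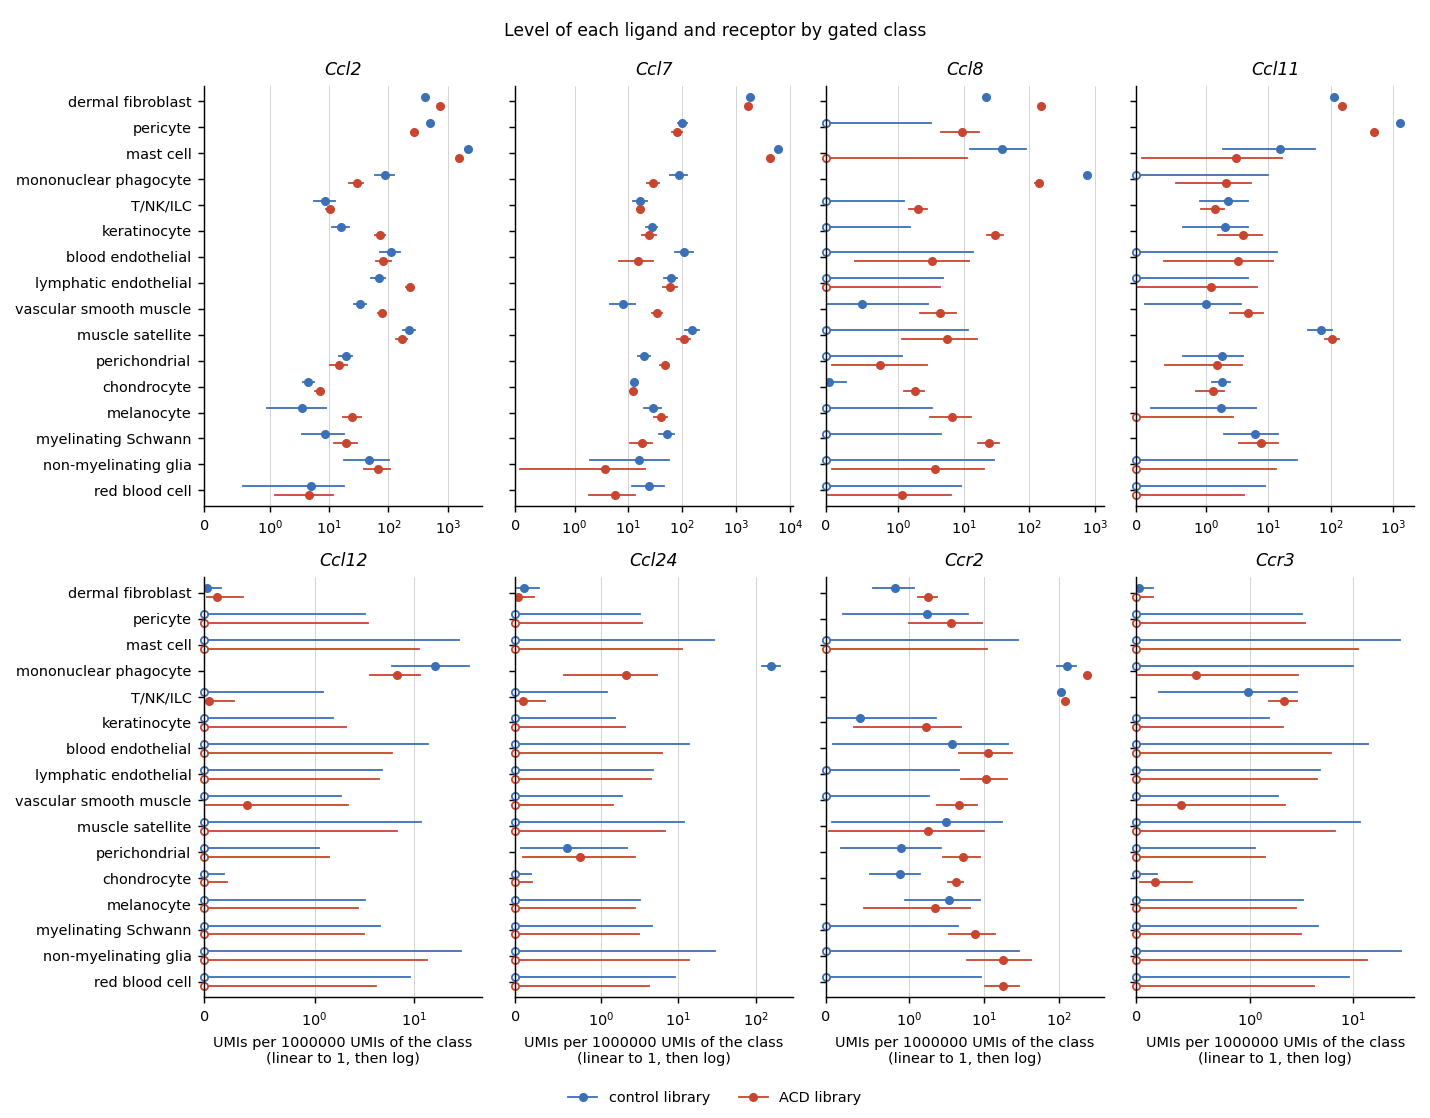
Each panel is 1 gene, and each point is its level in 1 gated class and library in UMIs per 1000000, on an axis that is linear up to 1 and logarithmic above, with lines for exact Poisson 95% intervals and open circles for 0 UMIs. Ccl8 in dFB-gated cells moved from 21.8 in control to 150.3 in ACD while in mononuclear phagocyte-gated cells it went from 766 to 141.

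**Figure D3:**
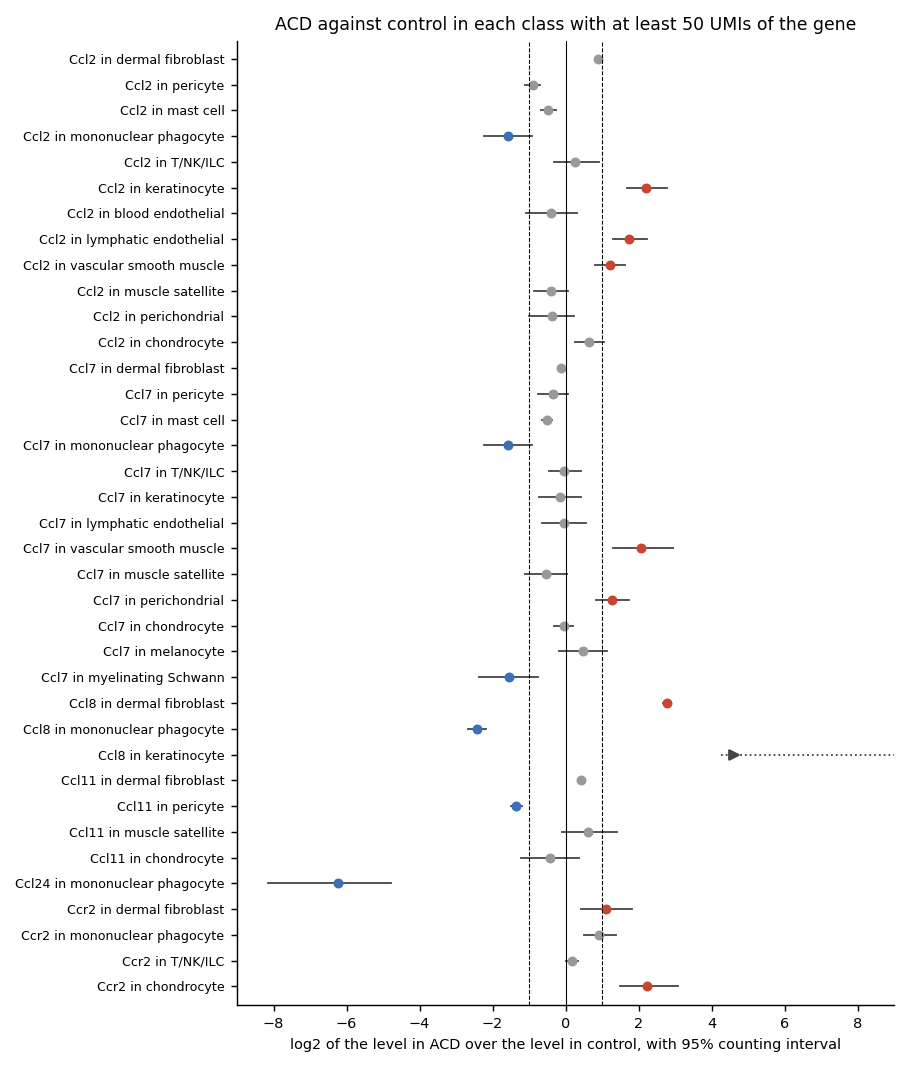
The log2 ratio of ACD over control is plotted for the 37 pairs of a member and a class with at least 50 UMIs, with exact 95% intervals, and the dashed lines mark a 2-fold difference in each direction. The triangle marks a lower bound, Ccl8 in keratinocyte-gated cells with 0 control UMIs.

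Ccl2 (ENSMUSG00000035385, chr11:82035571-82037453, forward strand) encodes CCL2, or MCP-1, the main CCR2 ligand that draws monocytes. The annotation places Gm17268 over it on the opposite strand, and whether the counting used strand is not given in the sources used here. Its 17629 control UMIs and 21412 ACD UMIs gave almost the same level over all cells, 191 (188 to 194) and 215 (212 to 218). In dFB-gated cells the level was 409 (402 to 415) in control and 748 (737 to 758) in ACD, and the log2 ratio of 0.87 (0.84 to 0.90) was short of the 2-fold mark. The level over all cells thus differed less than the level in fibroblasts, beside a dFB share of cells of 38.5% in control and 20.7% in ACD.

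Ccl2 differed by fibroblast subtype. It was past the fold upward in 3 of the 5 named subtypes, reticular/papillary, peri-follicular and dermal papilla cells, where 3.15%, 2.13% and 1.86% of all genes were. It was higher in ACD in reticular/papillary cells, at 431 (421 to 442) and 1098 (1075 to 1122), log2 ratio 1.35 (1.30 to 1.40). It was also higher in peri-follicular cells, a class marked by Coch and Crabp1, at 119 (106 to 134) and 432 (410.4 to 454), log2 ratio 1.86 (1.68 to 2.05). In dermal papilla cells, which sit at the base of the hair follicle, the levels were 254 (231 to 279) and 707 (663 to 752), log2 ratio 1.48 (1.31 to 1.64). There 1 cell held 29.4% of the control UMIs and 1 cell 34.1% of the ACD UMIs, and this ratio was not run under the alternatives. Adventitial cells, the Pi16-positive progenitors around vessels, had the highest Ccl2 level of the named fibroblast subtypes in control and differed little between the libraries, at 736 (711 to 761) and 701 (676 to 727). Preadipocyte-gated cells had 426 (403 to 450.5) and 716 (678 to 755). Between the subtypes the order thus changed, with adventitial cells first in control and reticular/papillary cells first in ACD. The intervals of preadipocyte, dermal papilla and adventitial cells in ACD overlapped, as did those of reticular/papillary and preadipocyte cells in control.

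Few fibroblasts carried most of this RNA. The top 10% of dFB-gated cells by Ccl2 count held 87.5% of its Ccl2 UMIs in control and 81.2% in ACD. After thinning of each cell to 2000 UMIs to even out depth, 17.5% (16.4 to 18.7) of control and 24.4% (22.7 to 26.2) of ACD dFB-gated cells had a Ccl2 UMI, and without thinning 26.8% and 37.7%. The thinned shares in chondrocytes, which served as the background, were 0.395% and 1.75%, at median depths of 8110 and 9821 UMIs against 7074.5 and 9301 in dFB. Thinning left out 62 control and 34 ACD fibroblasts with under 2000 UMIs.

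Mast cells had the highest Ccl2 level of any class with at least 20 cells in each library. It was 2179.6 (1933 to 2449) in control and 1572 (1439 to 1713) in ACD, and the log2 ratio was -0.47 (-0.68 to -0.26). In control 1 cell held 33.9% of these UMIs, against 6.95% in the top ACD cell, and as a mean over cells the ratio turned to 0.085. Mast cells are sentinel granulocytes of connective tissue, and these were shallow, with medians of 1016 and 1726 UMIs. Thinning left out 69 control and 84 ACD mast cells, and 14 of the other 18 and 47 of the other 65 had a Ccl2 UMI. The summed level of the 7 dFB markers in these cells was 2434 and 871, against 52717 and 38418 in dFB itself. The Ccl2 level of mast cells was above that of dFB, and the part of fibroblast RNA in it was not tested.

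Pericytes, the mural cells of small vessels, had a Ccl2 level of 510.3 (469.8 to 553) in control and 273 (243 to 306) in ACD, log2 ratio -0.90 (-1.11 to -0.70). Muscle satellite-gated cells had 222 and 167, and blood endothelial cells 109 and 82.3, with intervals of the ratio that included no difference in both. In T/NK/ILC-gated cells Ccl2 was at 8.48 and 10.2 and in chondrocytes at 4.43 and 6.94, the low end of the range.

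In 3 classes with low Ccl2 the level was more than 2-fold higher in ACD. Keratinocytes had 38 UMIs in control and 129 in ACD, levels of 15.7 (11.1 to 21.5) and 72.3 (60.3 to 85.9), log2 ratio 2.20 (1.67 to 2.77). Lymphatic endothelial cells had 53 and 191 UMIs, levels of 68.1 (51.0 to 89.1) and 228 (197 to 263), log2 ratio 1.75 (1.30 to 2.21), and 1 ACD cell held 59.7% of the ACD UMIs. VSMC had 66 and 196 UMIs, levels of 33.3 (25.7 to 42.3) and 76.5 (66.1 to 88.0), log2 ratio 1.20 (0.79 to 1.63), and 1 ACD cell held 38.8%. The VSMC ratio was 0.50 without Scrublet calls and turned to -1.07 when Leiden clusters replaced the gates, and that of lymphatic endothelial cells was 0.64 with those clusters and so short of the fold. Genes past the fold upward were few in these classes, 2.45% of 7146 genes in keratinocytes, 2.71% of 4248 in lymphatic endothelial cells and 1.96% of 7389 in VSMC. The dFB markers, whose RNA could be carried over from fibroblasts, summed to 752 in control and 660 in ACD in keratinocytes, 1664 and 1523 in lymphatic endothelial cells and 1431 and 1489 in VSMC, with none of the 7 at 0. They did not move with Ccl2 in these classes, while the Ccl2 level of the dFB themselves was higher in ACD, and the part of carried-over RNA was not tested.

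Ccl7 (ENSMUSG00000035373, chr11:82045712-82047525, forward strand) encodes CCL7, or MCP-3, a ligand of CCR2 that also binds CCR1 and CCR3. It had the most UMIs of the 8 genes, 71003 in control and 45092 in ACD. By fold over all other cells it ranked 3rd among genes of the dFB class, whereas Ccl2 ranked 19th. The level in dFB-gated cells was 1802 (1789 to 1816) in control and 1661 (1645 to 1677) in ACD, log2 ratio -0.12 (-0.14 to -0.10). Over all cells it went from 770.2 to 453, log2 ratio -0.77, beside the fall of dFB from 38.5% to 20.7% of cells.

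The Ccl7 level varied far more among fibroblast subtypes than between the libraries. Reticular/papillary cells had 2373 (2349 to 2398) and 2929 (2890.1 to 2968), preadipocyte cells 2018 (1967 to 2071) and 2401 (2332 to 2471), and adventitial cells 1609 (1572 to 1646) and 1376 (1341 to 1413). Peri-follicular cells were at the bottom with 61.6 (52.1 to 72.4) and 130.3 (119 to 143), a log2 ratio of 1.08 (0.81 to 1.36) just past the fold, which became 0.84 with 1 more marker required by the gate. Dermal papilla cells lay in between, at 995 (949 to 1043) and 741 (697 to 788). The order of these 5 subtypes was the same in both libraries and no neighboring intervals overlapped. Of thinned dFB-gated cells, 38.8% (37.4 to 40.2) in control and 37.0% (35.1 to 39.0) in ACD had a Ccl7 UMI, 49.8% and 49.3% without thinning, against thinned shares of 2.50% and 2.69% in chondrocytes.

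**Figure D4:**
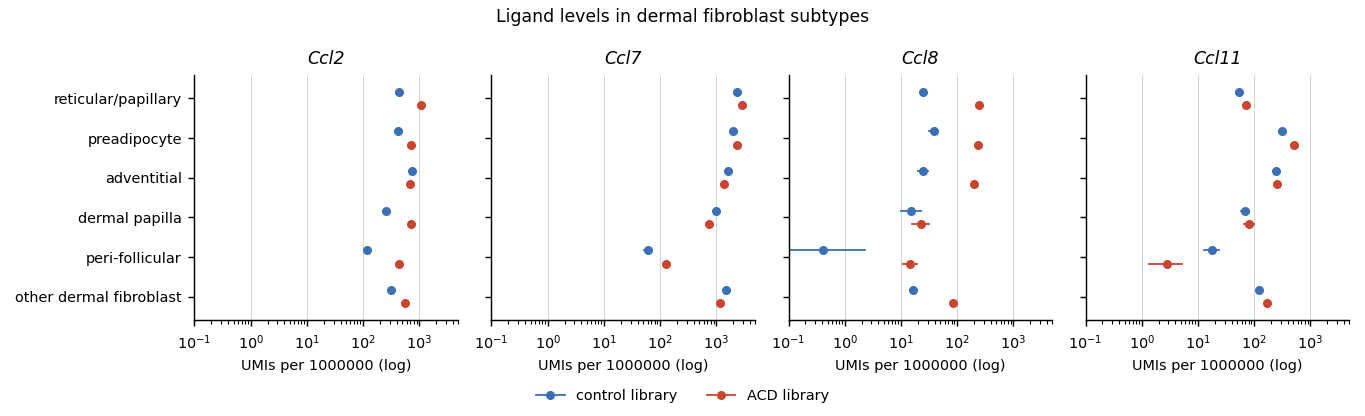
Levels of Ccl2, Ccl7, Ccl8 and Ccl11 in UMIs per 1000000, on a logarithmic axis, in the 6 groups of dFB-gated cells, control beside ACD, with exact Poisson 95% intervals, of which that of control peri-follicular Ccl8 (1 UMI) runs off the left edge. Ccl8 was higher in ACD in reticular/papillary, adventitial and preadipocyte cells (244, 199 and 238, against 25.3, 24.8 and 38.9), and Ccl7 was lowest in peri-follicular cells in both libraries.

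Ccl2 and Ccl7 are neighbors on the chromosome, and each was the gene whose levels were most like those of the other, with r = 0.841 over 35 class and library points that share libraries and depth. The balance of their UMIs nevertheless differed between classes and libraries. There were 4.41 (4.33 to 4.49) Ccl7 UMIs for each Ccl2 UMI in control dFB and 2.22 (2.18 to 2.26) in ACD dFB. The ratio went from 5.50 to 2.67 in reticular/papillary cells and from 3.92 to 1.05 in dermal papilla cells, but only from 2.19 (2.10 to 2.28) to 1.96 (1.88 to 2.05) in adventitial cells. In mast cells it was 2.82 (2.46 to 3.24) and 2.74 (2.48 to 3.04), and in pericytes, where Ccl2 predominated, 0.199 (0.162 to 0.243) and 0.292 (0.227 to 0.372). Chondrocytes, with few UMIs of either, had 2.88 (2.25 to 3.70) and 1.77 (1.41 to 2.22), so that even in this background the ratio was lower in ACD, as in dFB.

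Mast cells had the highest Ccl7 level too, 6138 (5719.5 to 6579.7) in control and 4309 (4087 to 4539) in ACD, log2 ratio -0.51 (-0.64 to -0.38). Of the mast cells deep enough for thinning, 18 of 87 in control and 65 of 149 in ACD, 17 and 53 had a Ccl7 UMI. In VSMC the counts were 16 and 87, levels of 8.06 (4.61 to 13.1) and 33.9 (27.2 to 41.9), log2 ratio 2.07 (1.29 to 2.94), and 1 ACD cell held 50.6% of the ACD UMIs. This ratio was 0.96 without Scrublet calls and turned to -2.68 with Leiden clusters. In perichondrial cells, the layer around ear cartilage, Ccl7 was at 19.4 (15.0 to 24.8) and 47.1 (39.2 to 56.1), log2 ratio 1.28 (0.83 to 1.74), where 1.39% of 8388 genes were past the fold upward. Myelinating Schwann cells went the other way with 42 and 21 UMIs, levels of 51.5 (37.1 to 69.6) and 17.7 (11 to 27.1). The log2 ratio was -1.54 (-2.37 to -0.75), where 0.6% of 5164 genes were past the fold downward. However, 1 control Schwann cell held 73.8% of the control UMIs, 31 of 42, so the lower value rests largely on that cell. The dFB markers summed to 18189 and 15808 in perichondrial cells and to 2080 and 2058 in Schwann cells, and the part of fibroblast RNA in these small counts was not tested.

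Ccl8 (ENSMUSG00000009185, chr11:82115185-82116799, forward strand) encodes CCL8, or MCP-2. The library total was 1123 UMIs in control and 4503 in ACD. In dFB-gated cells 808 UMIs in 365 control cells and 3768 UMIs in 625 ACD cells gave levels of 21.8 (20.4 to 23.4) and 150.3 (146 to 155), log2 ratio 2.78 (2.67 to 2.89). Of the 5 members with at least 50 UMIs in dFB, 2 were past the fold upward, Ccl8 and the receptor Ccr2 that is treated with the receptors, where 3.99% of 12856 genes were. None was past it downward, where 1.15% were. The 7 mononuclear phagocyte markers summed to 9.67 in control and 17.8 in ACD in dFB, against 6187 and 5228 in the phagocytes. Ccl8 in ACD dFB was as high as in ACD phagocytes, and the part of phagocyte RNA in it was not tested.

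Ccl8 was past the fold upward in 4 of the 5 named fibroblast subtypes, where 3.15% (reticular/papillary), 2.04% (adventitial), 2.04% (preadipocyte) and 2.13% (peri-follicular) of genes were. Reticular/papillary cells went from 25.3 (22.8 to 27.9) to 244 (233 to 255), log2 ratio 3.27 (3.11 to 3.43). Adventitial cells went from 24.8 (20.4 to 29.9) to 199 (186 to 213), log2 ratio 3.0 (2.72 to 3.30), and preadipocyte cells from 38.9 (32.0 to 46.7) to 238 (217 to 261), log2 ratio 2.62 (2.32 to 2.93). Dermal papilla cells had 15.4 (10.2 to 22.4) and 22.9 (15.7 to 32.4), with a ratio interval that included no difference. Peri-follicular cells had 1 and 52 UMIs, log2 ratio 5.14 (2.59 to 10.47), and an ACD level of 14.7 (11 to 19.3), the lowest value of the 5. The order of the subtypes in ACD thus resembled that of Ccl7, with dermal papilla and peri-follicular cells at the bottom.

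Thinned dFB-gated cells with a Ccl8 UMI were 2.43% (2.01 to 2.92) in control and 11.5% (10.2 to 12.8) in ACD, and 7.76% and 25.9% without thinning. The thinned chondrocyte background was 0.0439% and 0.643%. Within a library, Ccl8 went with Ccl7: among thinned ACD fibroblasts with a Ccl7 UMI 25.0% also had a Ccl8 UMI, against 3.54% of those without, and in control 4.5% against 1.13%. Cells were thinned to the same depth for these shares, but cells of 1 library are not replicates.

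In mononuclear phagocytes Ccl8 went the other way, from 766 (678 to 861) to 141 (125 to 159), log2 ratio -2.44 (-2.69 to -2.19), with 280 and 271 UMIs. All 280 control UMIs were in 8 macrophage-gated cells, those with the C1q genes, and 1 cell held 50% of them. Within macrophage-gated cells alone the level was 2208 (1957 to 2482) in control and 1978 (1673 to 2322) in ACD, log2 ratio -0.16 (-0.46 to 0.13). Macrophages made up 44.7% (30.2 to 59.9) of control phagocytes, 21 of 47 cells, and 8.23% (5.10 to 12.4) of ACD phagocytes, 20 of 243. The part of this makeup in the lower Ccl8 of the class as a whole was not tested. The level within macrophages rests on 8 and 6 cells with Ccl8, with 49.0% of the ACD UMIs in 1 cell. In monocyte-gated ACD cells the level was 115 (83.6 to 153), but 91.1% of those UMIs were in 1 cell.

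Of the UMIs of Ccl8 in control, dFB held 72.0% (69.2 to 74.6) and mononuclear phagocytes 24.9% (22.4 to 27.6). In ACD, dFB held 83.7% (82.6 to 84.7) and phagocytes 6.02% (5.34 to 6.75). With each cell thinned to 2000 UMIs, so that a cell of high depth counts no more than others, the control order turned, with 45.6% in dFB and 52.2% in phagocytes, and in ACD dFB kept the larger share at 72.5% against 12.7%. In keratinocytes no control UMI was seen among 171 cells. In ACD 54 UMIs lay in 7 of 128 cells, with 40.7% of them in 1 cell. That level was at least 24.4-fold higher when 3 UMIs are taken as the control limit. The phagocyte markers summed to 7.84 in control and 17.9 in ACD in keratinocytes, with 2 and 3 of the 7 at 0. The dFB markers there summed to 752 and 660, with none at 0, and the part of carried-over RNA was not tested. Chondrocytes had 1 and 32 Ccl8 UMIs.

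Ccl11 (ENSMUSG00000020676, chr11:82057823-82062955, forward strand) encodes eotaxin-1, a CCR3 ligand, and most of its UMIs were in dFB-gated and pericyte-gated cells. Muscle satellite-gated cells had 22 UMIs in control and 59 in ACD, levels of 69.7 (43.7 to 105) and 107 (81.7 to 138). Pericyte-gated cells had 1482 UMIs in control and 544 in ACD, levels of 1286 (1221 to 1353) and 504 (463 to 548), log2 ratio -1.35 (-1.50 to -1.21). It was the only member past the fold in this class, of 3 with at least 50 UMIs, where 2.16% of 5228 genes were past it downward and 2.85% upward. The 7 pericyte markers also summed to less in ACD, 15051 in control and 8323 in ACD, with none at 0, and their part in the lower Ccl11 was not tested. The thinned share of pericytes with a Ccl11 UMI was 51.0% (44.5 to 57.5) in control and 28.1% (20.1 to 37.3) in ACD, 57.9% and 53.5% without thinning, against 0.351% and 0.234% in chondrocytes.

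In dFB-gated cells Ccl11 was at 114 (111 to 118) and 153 (148 to 158), log2 ratio 0.42 (0.36 to 0.48). Preadipocyte-gated cells had the highest level of the subtypes, 309.5 (289.6 to 330.4) and 517 (485 to 551), the latter overlapping the ACD pericyte level, and adventitial cells came next with 245 (231 to 259.8) and 252 (237 to 268). The gene ranked 9th by fold in both of these subtypes and 23rd in pericytes. Reticular/papillary cells, the leading class for Ccl7, had only 53.3 (49.7 to 57.1) and 72.0 (66.1 to 78.3). In peri-follicular cells 43 control and 10 ACD UMIs gave a log2 ratio of -2.67 (-3.83 to -1.65), with 81.4% of the control UMIs in 1 cell, where 0.668% of genes were past the fold downward. The dFB share of all Ccl11 UMIs went from 68.3% (67.1 to 69.4) to 82.3% (81.2 to 83.4) and the pericyte share from 23.9% (22.9 to 25.0) to 11.7% (10.8 to 12.7).

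Ccl11 was found more often in pericytes with a Ccl2 UMI than in those without. Of thinned control pericytes with a Ccl2 UMI, 75.0% (45 of 60) had a Ccl11 UMI, against 43.1% (78 of 181) of those without. In ACD the shares were 50% (11 of 22) and 22.8% (21 of 92). In dFB the corresponding shares for Ccl11 were 20.6% and 7.42% in control, and 19.5% and 8.57% in ACD.

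Over the 4 ligands of fibroblasts (Ccl2, Ccl7, Ccl8 and Ccl11), the thinned dFB-gated cells with 2 or more of them made up 17.3% (805 of 4644) in control and 26.1% (620 of 2378) in ACD. Cells with none were 52.5% and 52.2% of the class, and cells with 1 ligand 30.2% and 21.7%. By subtype, cells with none were 39.0% and 22.6% of reticular/papillary cells, 30.2% and 17.4% of preadipocyte cells, 56.0% and 50.7% of adventitial cells, 89.4% and 82.0% of peri-follicular cells, and 66.8% and 74.8% of dermal papilla cells. In reticular/papillary cells 20.6% (18.6 to 22.6) and 43.6% (39.4 to 47.8) had 2 or more, and in preadipocyte cells 30% (25.5 to 34.8) and 47.9% (40.6 to 55.2). Adventitial cells had 21.6% (18.3 to 25.2) and 30.5% (25.9 to 35.4). Dermal papilla cells (13.5% and 11.5%) and peri-follicular cells (0.649% and 3.95%) had fewer.

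Ccl12 (ENSMUSG00000035352, chr11:82101845-82103400, forward strand) encodes MCP-5, a mouse CCR2 ligand, and Ccl24 (ENSMUSG00000004814, chr5:135569937-135573049, reverse strand) encodes eotaxin-2. Ccl12 was barely found, with 7 UMIs in control and 19 in ACD, of which 6 and 13 were in mononuclear phagocytes. Ccl24 had 70 UMIs in control and 9 in ACD. In control 57 of the 70 were in 12 of the 21 macrophage-gated cells, a level of 449 (340.4 to 582), and in ACD 1 UMI was in the 20 macrophage-gated cells, a level of 13.3 (0.336 to 74.0), log2 ratio -5.08 (-10.41 to -2.55). The ACD macrophages were shallower, with a median of 2383 UMIs against 5346. Unlike Ccl8, Ccl24 was thus lower within macrophage-gated cells too, where 14.8% of genes were past the fold downward.

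Over the whole mononuclear phagocyte class, 4 of 5 members with at least 50 UMIs were past the fold downward, where 4.88% of 5040 genes were, and none upward, where 9.05% were. Ccl24 was at 156 (118 to 202) and 2.08 (0.567 to 5.33), log2 ratio -6.23 (-8.15 to -4.79). Ccl2 and Ccl7 each had 32 control and 56 ACD UMIs, and so the same levels, 87.5 (59.8 to 124) and 29.1 (22.0 to 37.8), log2 ratio -1.59 (-2.24 to -0.91). With Leiden clusters the Ccl7 ratio was -0.37, short of the fold. The dFB markers in these cells summed to 763 and 396, lower in ACD as Ccl2 and Ccl7 were, and the part of fibroblast RNA in them was not tested. Of the 32 control UMIs, macrophage-gated cells held 25 for Ccl2 and 29 for Ccl7, and of the 56 ACD UMIs 14 and 16. Those macrophages had 126809 UMIs of all genes in control and 75341 in ACD, and were 44.7% and 8.23% of the phagocytes. The part of this makeup in the lower Ccl2 and Ccl7 was not tested. The fifth member was the receptor Ccr2.

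Ccr2 (ENSMUSG00000049103, chr9:124101950-124113557, forward strand) had 490 UMIs in control and 3500 in ACD, and over all cells its level went from 5.32 (4.85 to 5.81) to 35.1 (34.0 to 36.3), log2 ratio 2.72 (2.59 to 2.86). Within the T/NK/ILC gate the difference was small. In T/NK/ILC-gated cells 333 and 2543 UMIs gave 109 (97.2 to 121) and 122 (117 to 127), log2 ratio 0.17 (0.00 to 0.33), and none of the 3 members with at least 50 UMIs there was past the fold, where 4.53% of 10483 genes were past it upward and 8.08% downward. The median log2 ratio of all genes in these lymphocytes was -0.15. T/NK/ILC-gated cells were 5.67% of control and 26.7% of ACD cells and held 68.0% (63.6 to 72.1) and 72.7% (71.1 to 74.1) of Ccr2 UMIs.

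The thinned share of T/NK/ILC-gated cells with a Ccr2 UMI was 16.5% (13.8 to 19.6) in control and 20.6% (19.1 to 22.0) in ACD, and 30.1% and 41.0% without thinning, at median depths of 3666.5 and 5464 UMIs. Among the lymphocyte subsets, the IL-17 gamma delta T-gated cells, marked by genes such as Cd163l1, Il23r and Blk, had 179 (154 to 207) and 210.5 (194 to 228), the highest level in both libraries among subsets of at least 20 cells. Treg-gated cells had 166 (109 to 241) and 194 (177 to 212). The intervals of these 2 subsets overlapped in both libraries, so their order was not settled at this depth.

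Cd4/Cd40lg-gated cells had a Ccr2 level of 92.7 (61.6 to 134) and 99.3 (89.9 to 109), and ILC2-gated cells, for which only 2 of 4 markers were highest in the gate, had 76.6 (49.6 to 113) and 70.5 (51.2 to 94.7). In ACD, where they were numerous enough, NK/ILC1-gated cells had 142 (124 to 162) and Cd8a/Cd8b1-gated cells 64.4 (57.8 to 71.5). The Avil/Cd7-gated cells, meant to hold the gamma delta T cells of the epidermis, had the lowest values in both libraries but differed past the fold, 19.4 (9.67 to 34.7) and 50.4 (38.2 to 65.1), log2 ratio 1.38 (0.43 to 2.46), where 4.12% of 4294 genes were past it upward.

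Mononuclear phagocytes had a Ccr2 level of 128 (94.4 to 171) in control and 244 (222 to 267) in ACD, log2 ratio 0.92 (0.49 to 1.39). After thinning 4 of 43 control and 67 of 190 ACD cells had a Ccr2 UMI, 9.30% (2.59 to 22.1) and 35.3% (28.5 to 42.5), and without thinning 29.8% and 58.8%. The highest level of any class in ACD with at least 20 cells was in monocyte-gated cells, 479 (413 to 553). All 5 monocyte markers were highest in that gate, though none was among its 10 leading genes by fold, which held 5 markers of the mononuclear phagocyte list. Only 2 control cells passed it, against 66 in ACD, or 27.2% (21.7 to 33.2) of ACD phagocytes. Dendritic cell-gated cells, 12 and 56, with 5 of 6 markers highest there and none among the 10 leading genes, had 155 (95.7 to 236) and 248 (209 to 291), and macrophage-gated cells had 4 and 12 UMIs. In ACD, 13 of the 19 phagocytes with a Ccl8 UMI also had a Ccr2 UMI, and in control 0 of 8, whereas 143 of 243 and 14 of 47 phagocytes had a Ccr2 UMI in all.

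**Figure D5:**
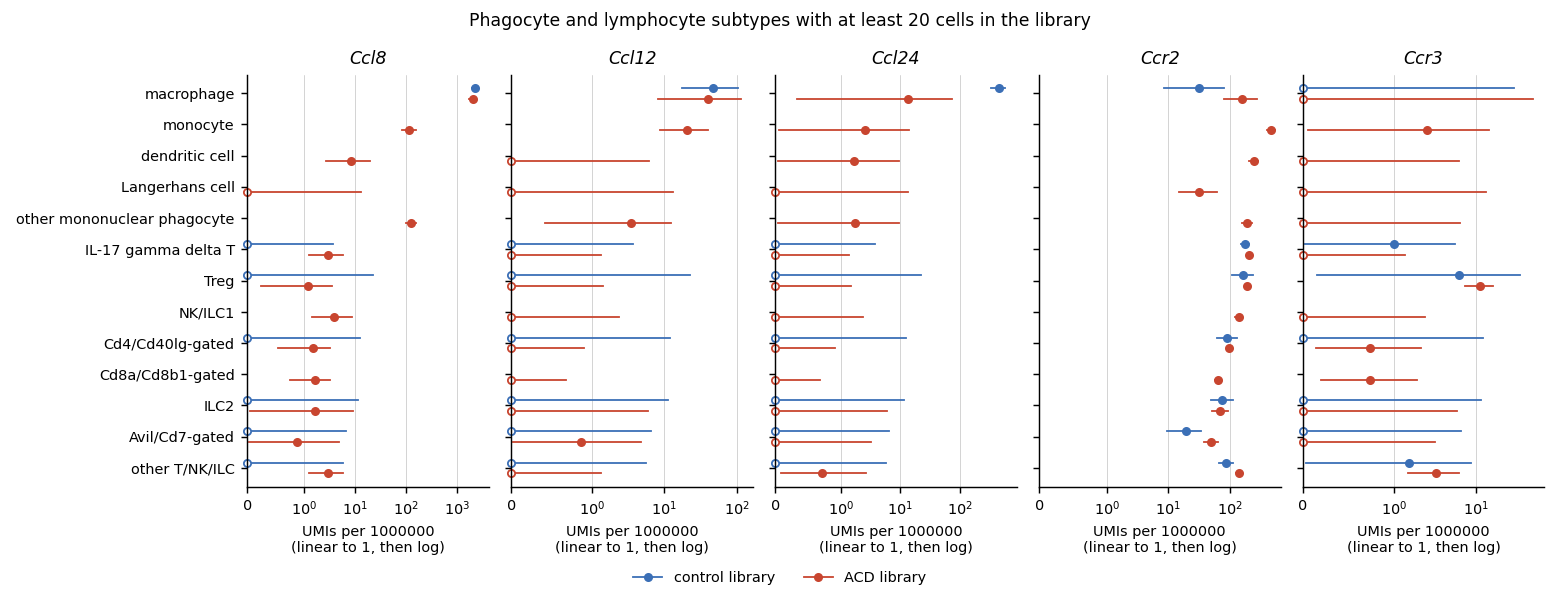
Levels of Ccl8, Ccl12, Ccl24, Ccr2 and Ccr3 in UMIs per 1000000 in the gated phagocyte and lymphocyte subsets with at least 20 cells in that library, with exact Poisson 95% intervals and open circles for 0 UMIs. Ccl24 appears in control macrophages, and Ccr2 is highest in ACD cells gated on monocyte markers.

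In classes not known for the receptor, Ccr2 was low. Chondrocytes had 18 and 76 UMIs, levels of 0.896 (0.531 to 1.42) and 4.22 (3.32 to 5.28), log2 ratio 2.23 (1.48 to 3.06), where 2.28% of 11942 genes were past the fold upward. In dFB 31 and 45 UMIs gave 0.838 (0.569 to 1.19) and 1.80 (1.31 to 2.40), log2 ratio 1.10 (0.41 to 1.81). Both are past the fold, and in ACD the fibroblast level was below that of chondrocytes. The 8 T/NK/ILC markers moved the same way, from 21.6 to 67.0 in chondrocytes and from 22.9 to 62.8 in dFB, with none at 0, in a library with more lymphocytes, and their part was not tested.

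Ccr3 (ENSMUSG00000035448, chr9:124021972-124031689, forward strand) was found at 5 UMIs in control and 67 in ACD, too few to compare classes between the libraries. Of the 67 ACD UMIs, 44 were in T/NK/ILC-gated cells, among them 28 in 18 of the 436 Treg-gated cells, a level of 11 (7.31 to 15.9). Basophils, for which the receptor is known, had 8 UMIs in 7 of 186 ACD cells, 10.1 (4.37 to 20), so the levels in Treg-gated cells and basophils were not separated at this depth. All 5 basophil markers and all 5 eosinophil markers were at 0 in ACD Treg-gated cells. Mast cells and neutrophils had no Ccr3 UMI in either library. Fibroblasts had 1 in control and 0 in ACD.

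Promoter sequences from RefSeq on GRCm38.p6 were held for 4 of the 8 genes. They are shown for 3 of these, because Ccl8 and Ccl12, neighbors on the chromosome, differed so much in how much RNA was found, and Ccr3 was the receptor found in few cells. The window of Ccr2 lay inside another annotated transcript of the gene. Each line gives the 250 bases before the start, 5′ to 3′, and capitals mark motif matches. The motifs searched, on both strands, were the TATA box TATAAA, the STAT site TTCNNNGAA, the AP-1 site TGANTCA and an NF-kB site of GGGA and CC with 4 bases between them, with any overlap allowed.
Ccl8, chr11:82114935-82115184, forward strand: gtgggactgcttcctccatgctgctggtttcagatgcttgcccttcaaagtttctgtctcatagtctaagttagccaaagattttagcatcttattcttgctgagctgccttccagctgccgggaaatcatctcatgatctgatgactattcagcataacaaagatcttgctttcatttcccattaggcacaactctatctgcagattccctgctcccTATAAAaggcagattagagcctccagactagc
Ccl12, chr11:82101595-82101844, forward strand: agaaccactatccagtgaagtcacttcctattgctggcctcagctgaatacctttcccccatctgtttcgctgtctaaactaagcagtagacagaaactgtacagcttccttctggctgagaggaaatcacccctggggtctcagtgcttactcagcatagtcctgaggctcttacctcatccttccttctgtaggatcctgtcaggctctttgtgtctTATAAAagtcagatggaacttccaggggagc
Ccr3, chr9:124021721-124021970, forward strand: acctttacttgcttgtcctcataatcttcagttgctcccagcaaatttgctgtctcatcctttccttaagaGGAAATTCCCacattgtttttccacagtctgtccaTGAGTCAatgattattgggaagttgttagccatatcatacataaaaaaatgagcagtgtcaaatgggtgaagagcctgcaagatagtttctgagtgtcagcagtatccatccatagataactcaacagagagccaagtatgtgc
The TATA match began 32 bases before the start of Ccl8 and 31 before that of Ccl12. Of 32851 promoters of the same length 12.4% held that motif on either strand. The Ccr3 window held an AP-1 match 144 bases before the start, a motif in 6.75% of promoters, and an NF-kB match 179 bases before it on the opposite strand, a motif in 17.6%. No window held the STAT letters, which 7.02% of promoters did. Matches are letters only and do not show that a factor binds.

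A list of 15 other genes held other CC chemokines, chemokine receptors and decoy receptors, with Il5 and Il5ra, the eosinophil growth factor and its receptor. Over the same 16 classes, 41 of 58 pairs of such a gene and a class were past the fold upward and 2 downward, against 9 and 6 of 37 for the members and 3.47% and 2.47% of all pairs. In dFB, where 3.99% of genes were past the fold upward, 5 of 9 were higher in ACD, the CC chemokine genes Ccl3, Ccl4, Ccl5, Ccl6 and Ccl9, and none lower. Ccl3 was at 12.1 (11 to 13.2) and 67.7 (64.5 to 71.0), log2 ratio 2.49 (2.34 to 2.64). The same 5 genes were higher in chondrocytes as well, where Ccl5 went from 0.697 (0.381 to 1.17) to 36.1 (33.4 to 39.0). In ACD 23354 of the 40572 Ccl3 UMIs were in the 186 basophil-gated cells, and the part of such RNA in the other classes was not tested.

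In T/NK/ILC-gated cells 7 of 8 listed genes were past the fold upward, beside 4.53% of all genes, and none downward. Ccl5 went from 109 (97.8 to 122) to 1368 (1353 to 1384), log2 ratio 3.65 (3.49 to 3.81), next to the Ccr2 ratio of 0.17 in the same cells. In mononuclear phagocytes, where 9.05% of genes were past the fold upward, 4 of 8 were higher, Ccr1, Ccl5 and Ccrl2 among them, and Ccl9 was lower, log2 ratio -1.56 (-1.98 to -1.14). Ackr1, a decoy receptor that binds Ccl2, Ccl7 and Ccl11 without signaling, was in dFB at 77.3 (74.5 to 80.2) and 42.1 (39.6 to 44.7), log2 ratio -0.88 (-0.98 to -0.78). Ccl26, the remaining eotaxin, had no UMI in either library.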

How the data were processed

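The authors aligned reads of 1 control and 1 ACD ear skin library to mm10 (Cell Ranger 3.1.0, per the submitters' processing notes) and deposited raw UMI counts for every gene in every barcode, with no normalization. Everything else was computed here with Python 3.11.15, numpy 2.4.6, scipy 1.17.1, pandas 2.3.3, scanpy 1.11.5 and matplotlib 3.10.9.

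The libraries held 12895 and 13163 barcodes with 99037698 and 126566870 UMIs. The filter asked for over 200 and under 5000 genes, no more than 25000 UMIs (a limit the methods print as a lower one) and under 8% mitochondrial UMIs. A cell joined the class with the highest marker score if the score was at least 0.15, 3 markers were found (2 for lists of at most 5 genes) and the next class scored 1.25 times lower (1.5 times between cartilage cells and fibroblasts, no margin between related classes). Subtypes needed a score of 0.1. Member genes were not markers. These thresholds were set after seeing the cells, and 1004 control and 777 ACD cells lay near them. Each lineage class had its own markers among its 10 leading genes by fold and no more of another lineage. The monocyte and dendritic cell subtypes had none of theirs among the 10. Fewer than 3 markers were found for the CD4, CD8 and epidermal T gates, which are named by genes. Doublets were kept, and Scrublet called 4.585% and 3.36% of cells. The names were rebuilt here and need not match the study's clusters.

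The members and lists were chosen with earlier results of these data known. All 8 members are named, with the 3 genes most correlated with each (log2 of UMIs per 1000000 plus 10, at least 200 UMIs), the other pathway genes with at least 50 UMIs, and markers. With 1 library per condition no test was run. Bounds take 3 UMIs as the limit of a count of 0. UMIs were summed, and cells were thinned to 2000 UMIs for shares of cells. The interval routine was tested on simulated data. Results for some listed genes are not reported here. Alternatives are given with their effect in the closing section. Positions come from GENCODE M21 on GRCm38, and coding sequences from its transcripts.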

Additional observations from a re-analysis of the deposited data

Results flagged for a closer look

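For Ccl2, Ccl7 and Ccl8 the ratio of ACD over control was past the 2-fold mark in opposite directions in different classes. With 1 library per condition, none of these differences between classes was tested. Ccl8 had a log2 ratio of 2.78 in dFB and -2.44 in mononuclear phagocytes. Within macrophage-gated cells alone its ratio was -0.16, and macrophages were 44.7% of control phagocytes and 8.23% of ACD phagocytes. In keratinocytes Ccl8 was at least 24.4-fold higher in ACD, from 0 control UMIs, with 40.7% of the ACD UMIs in 1 cell. Ccl2 had 2.20 in keratinocytes, 1.75 in lymphatic endothelial cells and 1.20 in VSMC, against -1.59 in mononuclear phagocytes. Ccl7 had 2.07 in VSMC and 1.28 in perichondrial cells, against -1.59 in mononuclear phagocytes and -1.54 in myelinating Schwann cells. In the Schwann cells 1 control cell held 73.8% of the control Ccl7 UMIs. With Leiden clusters in place of gates, both VSMC ratios turned, to -1.07 for Ccl2 and -2.68 for Ccl7, and Ccl7 in phagocytes was -0.37.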

How the results depend on the processing

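With 1 library per condition there was no replicate to leave out. No paired analysis was possible because each group is 1 library. The dFB share of ligand UMIs, 90.5% in control and 89.8% in ACD, was 89.8% and 85.9% with all deposited barcodes, 91.1% and 90.5% with at least 500 genes and under 5% mitochondrial UMIs, 93.1% and 90.7% without Scrublet calls, 91.0% and 89.4% with Leiden clusters in place of gates, 89.3% and 84.5% with cells thinned to 2000 UMIs, and 89.5% in ACD with a stricter gate. The 9 pairs of a member and a class that were higher in ACD became 5 without Scrublet calls and 5 with 10 UMIs per 1000000 added on both sides. They became 15, out of a larger set of pairs, when 20 UMIs sufficed. No share over all genes was computed for these settings. Of 34 log2 ratios over the alternatives, 205 values stayed within the interval, 48 moved out of it with no turn of a ratio whose interval excluded 0, and 3 turned: Ccl2 in mast cells to 0.085 as a mean over cells, and with Leiden clusters Ccl2 in VSMC to -1.07 and Ccl7 in VSMC to -2.68. Without Scrublet calls the VSMC ratios were 0.50 and 0.96. Ccl2 in lymphatic endothelial cells was 1.15 without the highest cell and 0.64 with Leiden clusters, Ccl7 in phagocytes -0.37 with Leiden clusters, Ccl7 in peri-follicular cells 0.84 with a stricter gate, and Ccl24 in macrophages between -6.61 and -3.03. Ratios near 0 also changed sign, Ccl8 in macrophages up to 0.33 and Ccl11 in adventitial cells down to -0.24. The cause of these changes was not tested. The ratios that were past the fold in all alternatives run were those of Ccl8 in dFB (2.47 to 2.94), its adventitial, preadipocyte and reticular/papillary subtypes, keratinocytes and phagocytes, Ccl2 in keratinocytes, phagocytes, reticular/papillary and peri-follicular cells, Ccl7 in perichondrial cells, Ccl11 in pericytes (-1.60 to -1.28), and Ccl24 in phagocytes and macrophages.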

Other observations

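The genes whose levels were most like those of each member are given as a description over 35 points, a point being a class in 1 library, which share libraries and depth. Those most like Ccl2, after Ccl7, were Chst1 (r = 0.754) and Tmem158 (0.747), and those most like Ccl7, after Ccl2, were Pcbd1 (0.791) and Sapcd1 (0.787). Ccl8 was most like F13a1 (0.799), C1qa (0.794) and C1qb (0.789), a clotting factor subunit and complement genes that mark resident macrophages, although more of its UMIs lay in fibroblasts. Ccl11 was most like Adamts12 (0.882), Tbx18 (0.867), a transcription factor of mural cells, and Nnmt (0.858). Ccl24 was most like Pf4 (0.964), Ms4a7 (0.931) and C1qc (0.928), and Ccl12, on 26 UMIs in all, like C1qb (0.998), Ms4a7 (0.998) and C1qc (0.997). Ccr2 was most like the lymphocyte genes Adgrg5 (0.913), Dok2 (0.896) and Klrb1b (0.894). Ccr3, on 72 UMIs, was most like Prss34 (0.955), a basophil protease that is also on the marker list of basophils, Wdr95 (0.926) and Gm12840 (0.904).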
